A study of Mus musculus with 38 samples.

Results

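The 7 genes described here encode the subunits of the AMPA-type glutamate receptor, Gria1, Gria2, Gria3 and Gria4, and 3 transmembrane AMPA receptor regulatory proteins (TARPs), Cacng2 (stargazin), Cacng3 and Cacng8. They were chosen by name, out of 22375 mouse genes with a coding sequence (CDS) in the files, and for each the counts of its longest transcript were used in all 38 libraries of 14 groups. AMPA receptors are glutamate-gated cation channels that carry most of the fast excitatory current at synapses of the brain. Receptors assembled with an edited GluA2 subunit, the product of Gria2, pass little calcium, whereas those without it are calcium permeable. TARPs ride with the receptor to the cell surface, slow its closing and anchor it in the postsynaptic density by binding PSD95, so that the mix of subunits and TARPs sets how a synapse responds.

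Footprints, the pieces of mRNA that a ribosome shields from nuclease digestion, were sequenced from primary cortical neurons of CD-1 mouse embryos by PL-Ribo-seq, which joins proximity labelling to ribosome profiling. Neurons carried a lentivirus with a doxycycline-inducible biotin ligase, either Pan-TurboID, without any localization signal, or TurboID-PSD95, to which UTRs and palmitoylation elements of PSD95 were added to bring it to dendrites. From each culture came an input library, made from 10% of the monosomes, and a pulldown library of biotinylated ribosome complexes, and all libraries were of neurons given cycloheximide and biotin. The KCl experiment held 24 libraries, 3 inputs and 3 pulldowns for both baits, from resting neurons and from neurons silenced with TTX and DL-AP5 for 2 h and then given 55 mM KCl during 1 h, which depolarizes them. In the DHPG experiment, 3 inputs and 3 pulldowns came from TurboID-PSD95 neurons that, after the same silencing with TTX and DL-AP5, received 100 µM DHPG, which activates metabotropic receptors of group I, over 10 min. In the knockdown experiment, 4 groups of 2 TurboID-PSD95 libraries came from resting and from KCl-depolarized neurons that received 20 nM siRNA to the initiation factor eIF4G2 over 72 h, the depolarized ones being silenced likewise before KCl. By the study's methods, neurons then spent 30 min after KCl in new medium with biotin, TTX and DL-AP5. After DHPG they spent 20 min in new medium, in which they were biotinylated. Cells were harvested after this recovery, but the methods place 2 min of cycloheximide before the biotin. Whether footprints stand for the end of the stimulus or for the recovery is therefore not settled here. No silencing is recorded for resting neurons, so that KCl or DHPG and the silencing before it cannot be told apart. None of the 38 libraries is labelled as given a control siRNA, so loss of eIF4G2 and siRNA transfection itself cannot be told apart.

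Library totals ran from 5906281 to 35643247 counts, of which 2047169 to 14636019 lay in the CDSs used here. In the 4 depolarized libraries of the KCl experiment numbered 1, CDSs took 12.5% to 24.8% of the counts, against 25.7% to 47.8% in the other 20 libraries of that experiment, and calls that changed without these 4 libraries, an alternative chosen after seeing the data, are given both ways. All 6 pan-neuronal markers were counted in every library, from Rbfox3 at 9.16 CPM or more to Map2 at 979 CPM or more (the CPM being a count scaled to the CDS total of its library), and the 6 microglial markers were at 0 in 8 (Aif1) to 30 (Tmem119) of the 38 libraries and reached at most 14.4 CPM (C1qa). The summed CPM of 6 astrocyte markers ran from 310.2 to 984 in the resting and depolarized libraries of the KCl experiment and from 90.7 to 99.4 in the DHPG libraries. The activity gene Arc rose 11.1-fold with KCl in the inputs of the KCl experiment (log2 fold change 3.48 ± 0.20 SE, edgeR adjusted p = 3.6e-12). In knockdown inputs it rose less, 3.55-fold (1.83 ± 0.30, adjusted p = 6.5e-05). Eif4g2, the target of the siRNA, fell by 0.98 ± 0.19 on the log2 scale in resting knockdown inputs (adjusted p = 0.0038). The study's methods call the replicates biological, and no pair of them agreed within sampling noise (chi-square per gene 1.58 to 68.4). Closeness varied, however: pairs of KCl-experiment libraries lay at 10.8 to 68.4. DHPG inputs lay at only 1.58 to 2.22, DHPG pulldowns at 3.41 to 12.8, and pairs with eIF4G2 knocked down at 2.92 to 5.09. Whether replicates were equally independent throughout was not tested, and standard errors and shares of genes called depend on it.

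On mm10, the CDS of Gria1 spans chr11:57012034-57327646 on the plus strand, that of Gria2 chr3:80689106-80802384 on the minus strand, that of Gria3 chrX:41401565-41672464 on the plus strand and that of Gria4 chr9:4420152-4795274 on the minus strand. Cacng2 lies at chr15:77995149-78118891 on the minus strand, and Cacng3 and Cacng8 at chr7:122671774-122768846 and chr7:3394225-3415605 on the plus strand. The subunit CDSs are 2652 to 2724 bases long and the TARP CDSs 948 to 1272 bases. A pair of neighbouring exons of 115 bases, flop upstream and flip downstream, sits in each subunit gene, of which a transcript uses 1. They encode the end of the ligand-binding domain and differ in how fast the channel desensitizes. Each exon pair is shown by the stretch of 30 bases in which flop and flip differ most, read 5′ to 3′ on the gene's strand from RefSeq's mm10 genome, since these bases are what tells the isoforms apart in footprints. Capitals mark the bases at which flop and flip differ.
Gria1 flop, chr11:57309850-57309879: GggCgaGtgCggCagcGGggGAGGTgACTC
Gria1 flip, chr11:57310689-57310718: AggGgaAtgTggAagcAAggACTCCgGAAG
Gria2 flop, chr3:80691323-80691352: ggAgaGtgCggCAGcGGggGAGGTgATTCC
Gria2 flip, chr3:80690407-80690436: ggTgaAtgTggAGCcAAggACTCGgGAAGT
Gria3 flop, chrX:41654891-41654920: AggAgaGtgCggCAGcGGggGcGGTgACTC
Gria3 flip, chrX:41669582-41669611: GggGgaAtgTggAGCcAAggAcTCCgGGAG
Gria4 flop, chr9:4432777-4432806: aggAgaatgtggCAGcGGggGAGGTgACTC
Gria4 flip, chr9:4427034-4427063: aggTgaatgtggACCcAAggACTCGgGAAG
Across whole exons, flop and flip differed at 31 to 36 bases, whereas the longest stretch that an exon shared with an exon of another subunit gene was 35 to 56 bases, longer than many footprints.

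Gria2 had the highest footprint level per kb of CDS in 38 of 38 libraries, and Gria1 came next in 38 of 38. In the 6 resting inputs of the KCl experiment, Gria2 stood at 164 ± 21.9 CPM per kb (SD, n = 6) and Gria1 at 70.1 ± 8.12. Cacng8 followed at 35 ± 7.08, Gria3 at 26.8 ± 6.23 and Gria4 at 25.9 ± 3.56 CPM per kb, and the spreads of these 3 overlapped. Cacng2 was at 10.0 ± 1.57 and Cacng3 at 6.62 ± 1.71 CPM per kb. Cacng8 was the highest TARP in 36 of 38 libraries, Gria3 exceeded Gria4 in 31, and all 4 subunits exceeded all 3 TARPs in only 10. The 4 genes of the subunits had 19661 (Gria4) to 170582 (Gria2) counts over all libraries, while Cacng2 had 2602 and Cacng3 2622, so that TARP values other than those of Cacng8 rest on few footprints. The lowest was 1 count of Cacng2, in the first depolarized Pan-TurboID input. All 7 genes passed the filter on low counts in every comparison.

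**Figure D1:**
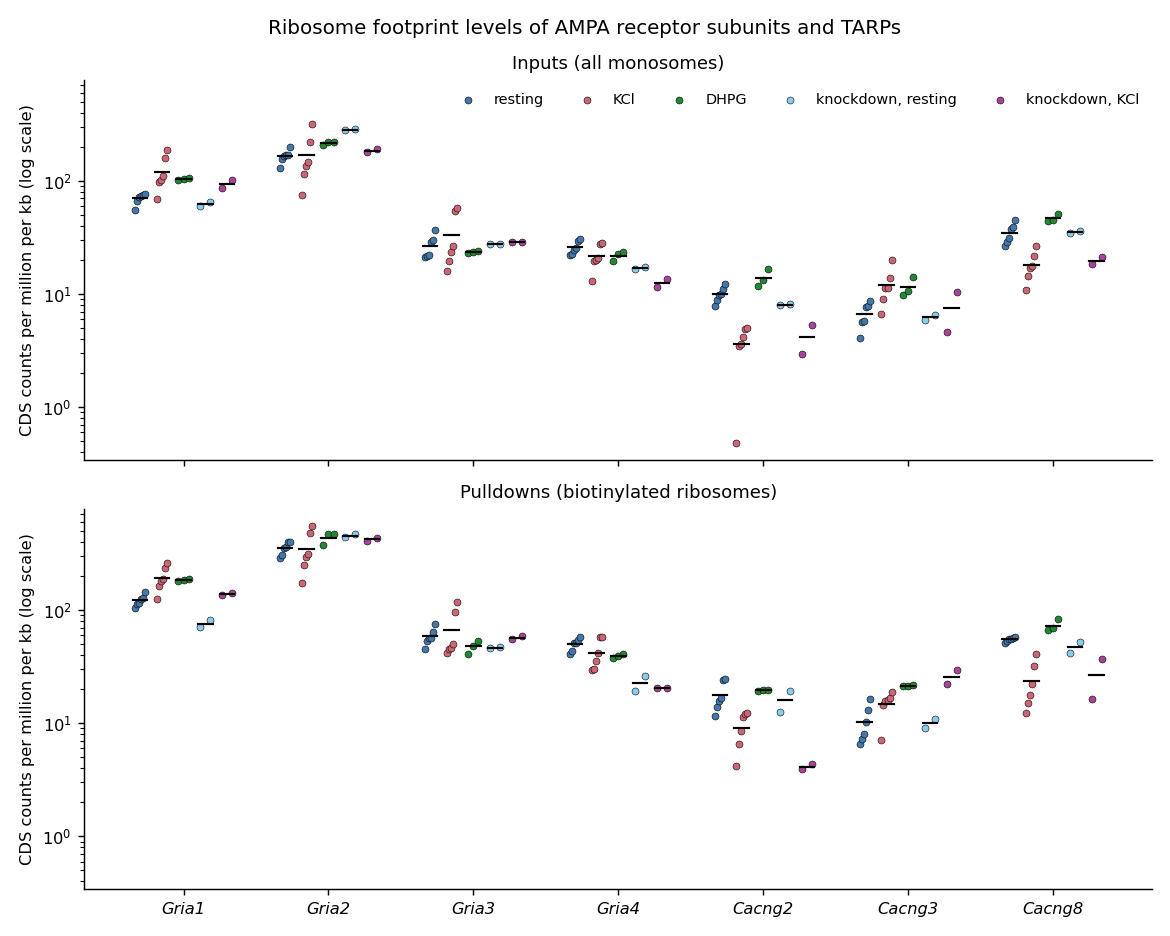
CDS footprint level in CPM per kb (log axis) of each gene in every input (top) and pulldown (bottom), coloured by condition, with both baits pooled in the KCl experiment; black bars are means. Gria2 is highest throughout, the KCl points of Cacng2 and Cacng8 lie low, and the lone low point of Cacng2 among the inputs rests on 1 count.

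Levels per kb across conditions set the genes apart. In inputs, the mean level of Gria1 was lowest in resting knockdown neurons, at 62.5 ± 3.1 CPM per kb (SD, n = 2), with the resting TurboID-PSD95 inputs next at 64.5 ± 8.3 (n = 3), which lies within their spread. It was 104 ± 2.2 in DHPG inputs and 133 ± 48.6 in depolarized Pan-TurboID inputs, the highest group. Gria2 ran from 144 ± 72 CPM per kb in depolarized TurboID-PSD95 inputs to 283 ± 4.3 in resting knockdown inputs. Gria4, in contrast, was lowest in knockdown neurons, at 12.6 ± 1.5 CPM per kb when depolarized and 17 ± 0.65 at rest, and was at 20.4 to 26.3 in the other inputs. Cacng8 was highest in DHPG inputs (46.8 ± 3.4 CPM per kb) and lowest in depolarized TurboID-PSD95 inputs (16.4 ± 1.8).

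The genes whose profile over the 14 group means was most like the mean profile of the 4 subunits were Clcn5 (Pearson r = 0.99) and Clcn3 (r = 0.98), which encode chloride and proton exchangers of endosomes, Slc7a14 (r = 0.98), Kcnk9, a potassium leak channel (r = 0.97), and St8sia3, a sialyltransferase (r = 0.96), among 7701 genes with a mean log2 CPM of at least 4. These r are a description over groups that share cultures and depth. The subunits themselves correlated with their common mean, which contains them, by 0.95 for Gria3, 0.82 for Gria4, 0.80 for Gria1 and 0.80 for Gria2. They ranked 19, 430, 489 and 495 in that order, so many other genes followed this mean more closely than Gria4, Gria1 and Gria2 did.

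Pulldown against the input of the same culture asks which footprints were richer on biotinylated ribosome complexes. All 4 subunits were higher in the pulldown in 19 of 19 cultures, with both baits. Over all genes and cultures, 127 of 133 ratios were above 1, 76 of 76 for subunits and 51 of 57 for TARPs. Among 7707 genes with a mean log2 CPM of at least 4, 47.6% of ratios were above 1 and 16.3% of genes were above 1 in all 19 cultures, and among the 1776 of them with a CDS of at least 2652 bases, 74.5% and 34.8%. The geometric mean ratio was 2.06 for Gria2, 2.05 for Gria3, 1.80 for Gria4 and 1.62 for Gria1, and 1.89, 1.62 and 1.40 for Cacng2, Cacng3 and Cacng8.

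In resting TurboID-PSD95 neurons, Gria1 stood at 179.7, 151 and 196 CPM in inputs 1 to 3 and at 339, 310.2 and 395 CPM in their pulldowns. Gria3, whose product GluA3 pairs mostly with GluA2, stood at 80.4, 56.3 and 58.0 CPM in the inputs and 202, 152 and 142 in the pulldowns. For both genes the 3 pulldowns were all above the 3 inputs. In edgeR's quasi-likelihood test, with p adjusted over all genes by Benjamini-Hochberg and a threshold of 0.05, 4 of the 7 genes rose in these pulldowns, where 25.1% of all genes tested were called. They were Gria3 (log2 fold change 1.38 ± 0.48 SE, adjusted p = 0.040), Gria2 (1.24 ± 0.42, adjusted p = 0.037), Gria4 (1.05 ± 0.29, adjusted p = 0.012) and Gria1 (1.02 ± 0.30, adjusted p = 0.016). The median over the 7 genes was 1.02 and over all genes -0.05. Cacng8 (0.86 ± 0.34), Cacng2 (0.85 ± 0.44) and Cacng3 (0.68 ± 0.46) did not pass.

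The other comparisons of the KCl experiment gave fewer calls at similar sizes. In depolarized TurboID-PSD95 pulldowns, Gria4 alone passed (1.13 ± 0.29, adjusted p = 0.018), where 12.6% of genes were called, with Gria2 at 1.21 ± 0.42 and Gria3 at 1.19 ± 0.48. In resting Pan-TurboID pulldowns Gria4 alone passed as well (0.91 ± 0.29, adjusted p = 0.046; 9.54% of genes called). In depolarized Pan-TurboID pulldowns Gria4 passed again, together with Cacng2 (1.56 ± 0.48, adjusted p = 0.044; 8.75% of genes called). One of these inputs held 1 count of Cacng2, and without the 4 depolarized libraries numbered 1, that input and its pulldown among them, Cacng2 was at 0.98 (adjusted p = 0.18). Its call also ended without all libraries numbered 2 (1.87, adjusted p = 0.15) or 3 (1.97, adjusted p = 0.25). Gria4 was at 76.4, 55.9 and 52.8 CPM in the depolarized Pan-TurboID inputs and at 155, 95.3 and 79.8 in their pulldowns, so that each pulldown exceeded its own input and all 3 inputs. The calls of Gria4 ended without the libraries numbered 2 or 3 in all of these comparisons (adjusted p = 0.051 to 0.29), and with Pan-TurboID after KCl also without those numbered 1 (0.75, adjusted p = 0.084). Without the 4 depolarized libraries numbered 1, in contrast, all 4 subunits passed in all 4 comparisons of the KCl experiment, at 0.67 (Gria1, resting Pan-TurboID) to 1.36 (Gria3, depolarized TurboID-PSD95) among the calls gained, where 35.2%, 6.82%, 24.1% and 8.38% of all genes were called in resting and depolarized TurboID-PSD95 and resting and depolarized Pan-TurboID neurons. Cacng8 then also passed in resting TurboID-PSD95 pulldowns (0.87, adjusted p = 0.028).

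Each input and pulldown came from the same lysate, and with the culture as a block the count of calls in these 4 comparisons rose. All 4 subunits then passed in all 4 comparisons, with adjusted p from 1.1e-08 (Gria2, resting TurboID-PSD95) to 1.4e-04 (Gria1, depolarized Pan-TurboID), where 41.9%, 34.6%, 32.9% and 31.9% of all genes were called in resting and depolarized TurboID-PSD95 and resting and depolarized Pan-TurboID neurons. The blocked log2 fold changes of the subunits were 0.64 to 1.39. Among the TARPs, Cacng8 passed in resting neurons of both baits (0.87 ± 0.21 with TurboID-PSD95, adjusted p = 0.0015; 0.56 ± 0.21 with Pan-TurboID, adjusted p = 0.037) and Cacng2 in depolarized Pan-TurboID neurons, and Cacng3 in none. Without the block, the 4 calls at rest were lost when the libraries numbered 2 or 3 were left out (Gria1 1.05, adjusted p = 0.064, and 1.01, adjusted p = 0.18).

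In the DHPG experiment all 7 genes rose in the pulldowns, where 79.7% of all genes passed in either direction. Gria3 had the largest value as designed (1.23 ± 0.09, adjusted p = 9.7e-10), at 60.9, 64.6 and 62.4 CPM in the inputs and 129, 143 and 109 in the pulldowns, and Cacng2 the smallest (0.70 ± 0.14, adjusted p = 1.5e-04), at 12.9, 16.1 and 11.5 CPM against 19.3, 18.7 and 19. The pulldowns of both genes lay above their inputs with no overlap. This order turned with the trend of counts with CDS length removed, when Cacng3 was at 1.44, Cacng2 at 1.01 and Gria3 at 0.68, and all 7 still passed. With eIF4G2 knocked down, the 4 subunits rose in resting pulldowns (45.5% of all genes called), from 0.39 ± 0.11 for Gria1 to 0.86 ± 0.13 for Gria3, and in depolarized pulldowns (48.8%), where Gria2 led the subunits at 1.28 ± 0.08. Cacng3 also rose in the latter (1.81 ± 0.44, adjusted p = 0.0013), with 9.85 and 4.36 CPM in the inputs and 21.0 and 27.7 in the pulldowns. The resting calls of Gria1 and Gria4 each failed on leaving out a single library (without the first resting pulldown, Gria1 0.26, adjusted p = 0.12, and Gria4 0.26, adjusted p = 0.43). Knockdown groups hold 2 libraries, so leaving 1 out leaves a lone library that is assumed to vary like the other groups, here and in the knockdown comparisons that follow.

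**Figure D2:**
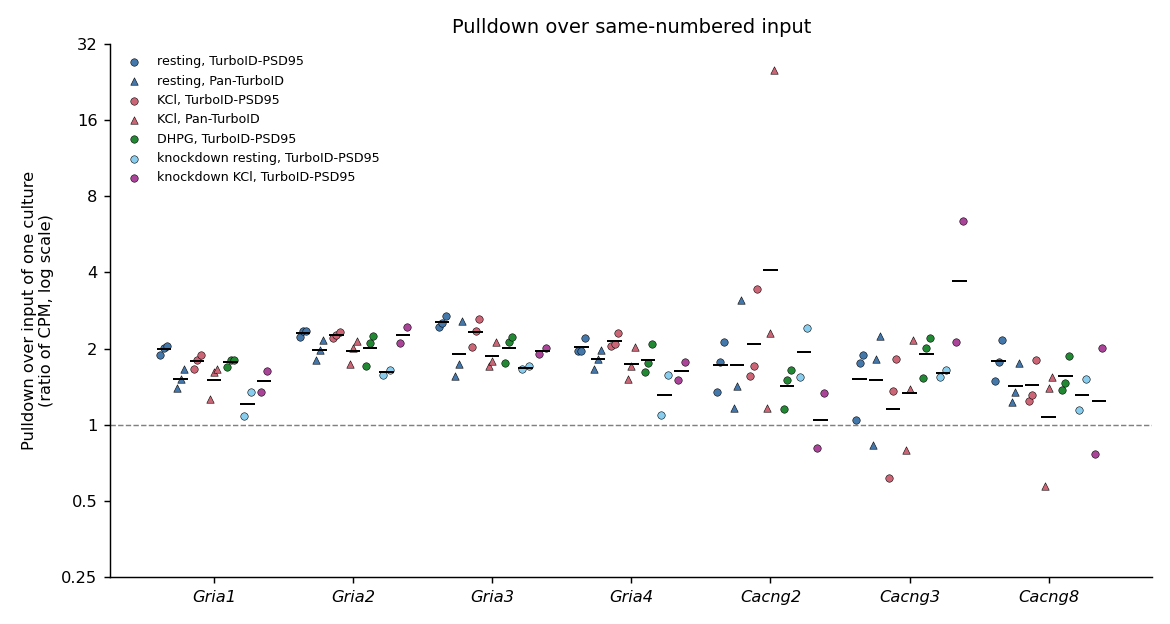
Ratio of CPM in the pulldown to CPM in the input of the same culture (log axis) for 19 cultures, coloured by condition, with triangles for Pan-TurboID; black bars are geometric means and the dashed line marks equal levels. All 76 subunit ratios lie above 1, 6 of 57 TARP ratios lie below, and the Cacng2 ratio of 25.2 has 1 count in its input.

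Subunit CDSs were longer than those of 86.8% to 87.4% of all genes, and pulldowns held more of long CDSs. With each library's trend of counts with CDS length removed, the values of the subunits shrank. At rest with TurboID-PSD95, the calls of Gria1 (0.69, adjusted p = 0.054), Gria2 (0.92, adjusted p = 0.11) and Gria3 (1.05, adjusted p = 0.12) ended and that of Gria4 stayed (0.72, adjusted p = 0.042), while Gria4 passed in none of the other 3 comparisons of the KCl experiment (adjusted p = 0.053 to 0.15). Values shrank also in DHPG neurons (Gria1 0.47, adjusted p = 5.3e-07) and in knockdown neurons, where neither Gria1 (0.03 at rest and 0.21 after KCl) nor Gria4 (0.17 and 0.34) passed any longer. Those of Cacng2 (1.06) and Cacng3 (0.91) at rest with TurboID-PSD95 grew and stayed short of the threshold, and Cacng2 passed in resting knockdown pulldowns (1.33, adjusted p = 0.028). Of 49 tests of pulldown over input, 24 passed as designed and 15 without the length trend. With the length trend removed and the culture as a block together, 35 passed, and the 4 subunits passed in each of the 4 comparisons of the KCl experiment, at 0.33 (Gria1, depolarized Pan-TurboID) to 1.06 (Gria3, resting TurboID-PSD95).

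Whether the dendritic bait enriched these footprints beyond the untargeted one was tested as the difference of the 2 enrichments. No gene of the 7 passed: values lay between -0.26 ± 0.46 (Cacng2) and 0.33 ± 0.47 (Gria3), with an adjusted p of 1.0 for each and none at an unadjusted p under 0.05. Only 0.00769% of genes, 1 of 13003, was called, and that was Dlg4 (4.17 ± 0.64), whose sequences the TurboID-PSD95 construct carries. For Gria1 the difference was 0.32 ± 0.29 and with the culture as a block 0.31 ± 0.11, still with an adjusted p of 0.93. Depolarized minus resting enrichment gave no call for the 7 genes or for any other (0% of genes with either bait), with values of -0.33 to 0.25 for TurboID-PSD95 and -0.30 to 0.66 for Pan-TurboID. Pulldown ratios above 1 were measured with both baits, and these libraries did not resolve a difference between baits of the size of these errors.

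KCl against rest asks how footprints differed in neurons given KCl during an hour and harvested after the step with cycloheximide and biotin that followed. Gria1 rose and Cacng2 and Cacng8 fell in the inputs, so that 3 of 7 genes passed where 15.4% of all genes did. Gria1, which encodes the subunit GluA1 that is inserted at synapses during potentiation, had 151 CPM at the lowest, 199 at the median and 210.1 at the highest of the 6 resting inputs, and 189, 289 and 513 in the 6 depolarized inputs. All but 1 depolarized input exceeded every resting input. The 6 inputs of a state are both baits of 3 numbers, and baits of one number deviated together over all genes (r = 0.28 to 0.63 in 6 pairs), which the tests over both baits do not take into account. Its log2 fold change was 0.83 ± 0.21 (1.78-fold, adjusted p = 0.0072).

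Cacng8, the TARP of hippocampal and cortical AMPA receptors that the most footprints covered, had 34, 44.2 and 57.9 CPM in the resting inputs and 13.9, 22.1 and 34 in the depolarized inputs (lowest, median and highest). The lowest resting and the highest depolarized input met at the same level. In pulldowns it had 65.6, 70.9 and 73.5 CPM at rest and 15.7, 25.6 and 52.3 after KCl, with no overlap. Cacng8 fell by 0.92 ± 0.24 on the log2 scale in the inputs (adjusted p = 0.011), by 1.19 ± 0.35 in TurboID-PSD95 pulldowns (adjusted p = 0.038) and by 1.16 ± 0.34 in Pan-TurboID pulldowns (adjusted p = 0.042). As designed, it was the only one of the 7 genes that passed in these pulldowns, where 6.58% and 5.03% of all genes were called. With the CDS length trend removed, Gria1 was also called higher in Pan-TurboID pulldowns (0.93 ± 0.24, adjusted p = 0.020).

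Cacng2, which encodes the founding TARP stargazin, had 7.71, 9.60 and 12 CPM in resting inputs and 0.475, 3.80 and 4.89 in depolarized inputs, with no overlap. It fell by 1.37 ± 0.34 on the log2 scale (adjusted p = 0.0061), from counts of 35 to 113 per library at rest to 1 to 40 after KCl. Cacng3 had 3.90, 6.36 and 8.21 CPM at rest and 6.38, 10.8 and 19 after KCl, and its value of 0.87 ± 0.33 missed the threshold (adjusted p = 0.072), though it passed by DESeq2 (0.90, adjusted p = 0.036) and by edgeR's likelihood ratio test (0.87, adjusted p = 0.047). Gria3 (0.34 ± 0.34), Gria4 (-0.23 ± 0.21) and Gria2 (0.07 ± 0.30) did not pass in inputs.

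The 4 depolarized libraries numbered 1 mattered for the subunits. In depolarized inputs 1 to 3, Gria2 stood at 582, 201 and 359.6 CPM with TurboID-PSD95 and at 839, 386 and 308 with Pan-TurboID, the first library being highest with both baits. Without those 4 libraries Gria2 turned to -0.48 ± 0.17 (adjusted p = 0.046) and Gria4 to -0.49 ± 0.16 (adjusted p = 0.024), while Gria1 stayed higher at 0.44 ± 0.14 (adjusted p = 0.026). Cacng2 (-1.16, adjusted p = 0.0081) and Cacng8 (-1.0, adjusted p = 0.0051) were lower with and without them. In that setting 5 of the 7 genes passed in inputs, where 21.3% of all genes did. In TurboID-PSD95 pulldowns Cacng8 (-1.45, adjusted p = 0.0067) and also Cacng2 (-1.31, adjusted p = 0.037) then passed, and in Pan-TurboID pulldowns Cacng8 did not (-0.90, adjusted p = 0.096). Leaving out all libraries numbered 3 ended the 3 input calls (Gria1 1.01, adjusted p = 0.059; Cacng2 -1.30, adjusted p = 0.13; Cacng8 -0.62, adjusted p = 0.26), and without those numbered 1 Gria1 was at 0.42 (adjusted p = 0.098). The Cacng8 calls in pulldowns ended too when the libraries numbered 3 were left out (-1.0, adjusted p = 0.29, with TurboID-PSD95; -0.94, adjusted p = 0.41, with Pan-TurboID), when those numbered 2 were left out for TurboID-PSD95 (-1.05, adjusted p = 0.22), and when those numbered 1 were left out for Pan-TurboID (-0.92, adjusted p = 0.18).

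By the study's methods, resting and activated samples of the same biological replicate were processed together, and libraries of the same number were paired on that basis. The labels do not say that a number marks a batch. Deviations of paired libraries from their group means correlated by r = -0.19 to 0.42, so their ratios are not shown to be responses within a batch. There were 16 such pairs, 12 from the KCl experiment and 4 from the knockdown experiment, but they are not independent, as they are the inputs and the pulldowns of the same 8 pairs of cultures. Over them, Gria1 was higher after KCl in 16 (geometric mean ratio 1.61, range 1.1 to 2.49) and Cacng8 was lower in 16 (0.467, range 0.223 to 0.735). Cacng2 was lower in 15 of 16 pairs (0.379) and Cacng3 higher in 14 (1.63). Gria2 was lower in 12 (0.884), Gria4 in 11 (0.820), and Gria3 had a geometric mean of 1.09. The share of all genes that keep a single direction in all 16 pairs is not given here, so how unusual these counts are is not known.

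**Figure D3:**
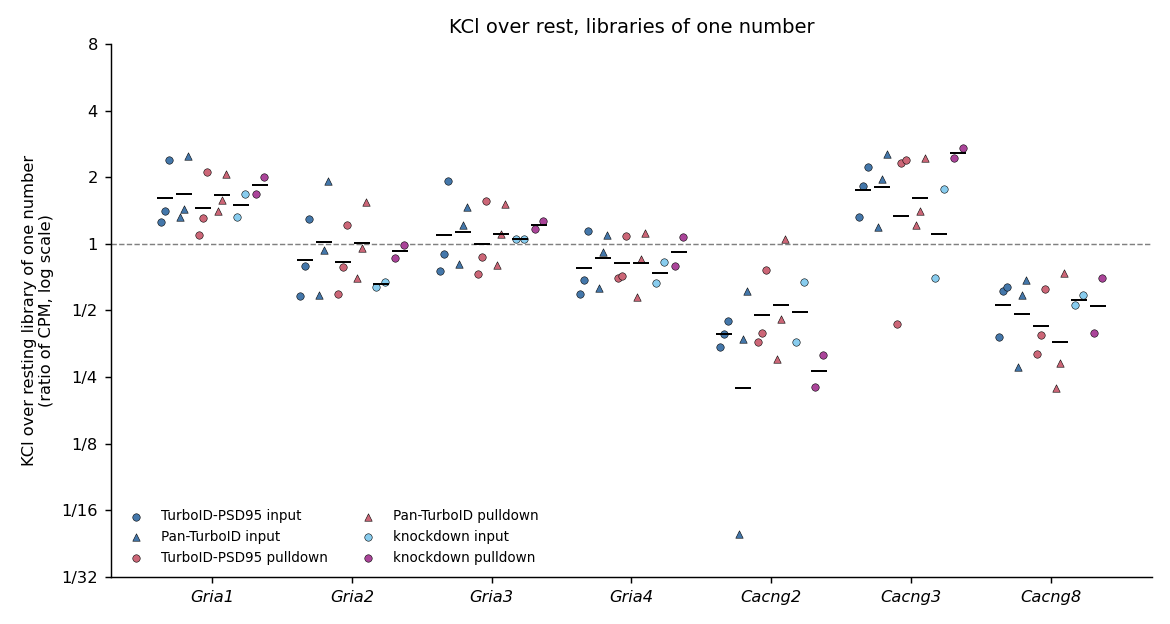
Ratio of CPM in a KCl library to CPM in the resting library of the same number, bait and fraction (log axis), for 16 pairs; black bars are geometric means and the dashed line marks equal levels. Every Gria1 point lies above 1 and every Cacng8 point below it, while Gria2, Gria3 and Gria4 straddle the line.

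The shares of the 4 subunits in their summed CPM per kb take out what moves them together. Gria1 made up 22.4% to 27.9% of the subunit footprints in the 6 resting inputs and 32.1% to 39.8% in the 6 depolarized inputs, with no overlap. In pulldowns its share was 18.6% to 24.0% at rest and 25.1% to 34% after KCl, again with no overlap. The share of Gria2 was 54.4% to 59.6% in resting and 43.5% to 53.9% in depolarized inputs, but its shares in pulldowns, 57.6% to 64.1% and 46.6% to 58.5%, overlapped. In inputs that of Gria4 was 8.14% to 10.1% and 4.81% to 7.57%, with no overlap, but its shares in pulldowns, 7.72% to 9.19% and 6.0% to 8.20%, overlapped. In inputs the ranges of Gria3 (7.42% to 12.1% and 7.11% to 12.5%) overlapped too. Among the TARPs, Cacng3 went from 7.59% to 18.6% at rest to 26.5% to 47.5% after KCl in inputs, and from 8.86% to 16.6% to 18.6% to 42.8% in pulldowns, while Cacng8 went from 57.4% to 76.8% to 50.4% to 62.2% in inputs. Shares of a total are bound to move against each other, and they were not tested.

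**Figure D4:**
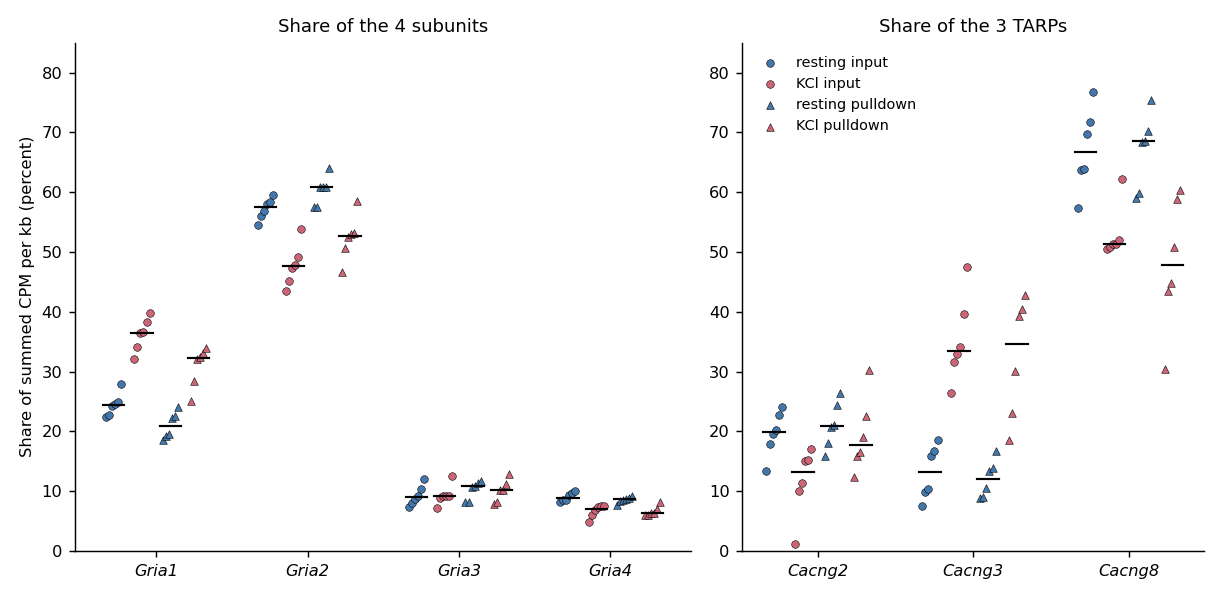
Share (percent) of each subunit in the summed CPM per kb of the 4 subunits, and of each TARP in that of the 3 TARPs, per library of the KCl experiment; circles are inputs, triangles pulldowns, black bars medians of 6. Gria1 and Cacng3 shares after KCl lie above all resting shares of the same fraction, and Gria2 shares in inputs lie below.

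With eIF4G2 knocked down, KCl against rest was tested between 2 and 2 libraries. In inputs Gria1 rose (0.60 ± 0.11, adjusted p = 2.4e-04) from 164 and 176 to 276 and 234 CPM, and Gria2 fell by 0.59 ± 0.08 (adjusted p = 4.8e-06) from 757 and 741 to 511 and 474 CPM. Cacng8 fell by 0.84 ± 0.27 (adjusted p = 0.028), from 44.1 and 46.1 to 23.3 and 27.0 CPM. These 3 of 7 compare with 19.3% of all genes. In pulldowns (22.2% of all genes called) Gria1 rose (0.87 ± 0.11, adjusted p = 2.1e-06) and so did Cacng3 (1.38 ± 0.43, adjusted p = 0.021), which went from 8.61 and 10.2 to 21.0 and 27.7 CPM, and Cacng2 (by 1.91 ± 0.54, adjusted p = 0.011) and Cacng8 (by 0.80 ± 0.27, adjusted p = 0.033) fell. Every call of KCl against rest in knockdown neurons other than those of Gria1 and Gria2 ended on leaving out 1 library, such as Cacng8 in inputs without the first depolarized input (-0.73, adjusted p = 0.25), Cacng8 in pulldowns without the second depolarized pulldown (-0.35, adjusted p = 0.34), Cacng2 without the second resting pulldown (-1.59, adjusted p = 0.077) and Cacng3 without the first (1.25, adjusted p = 0.10).

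Whether knockdown altered the KCl response was tested as the difference of both responses. The activity gene Arc responded less in the knockdown experiment, with differences of -1.52 ± 0.43 in inputs and -1.95 ± 0.47 in pulldowns. Their unadjusted p were 0.0016 and 4.0e-04 by edgeR, and neither passed after adjustment. The differences of log2 fold changes were -0.49 ± 0.52 for Gria2 and -0.18 ± 0.41 for Gria1 in inputs, and 1.01 ± 0.71 for Cacng3 and -0.82 ± 0.64 for Cacng2 in pulldowns, and none of the 7 passed in either fraction or had an unadjusted p under 0.05 (0.00759% and 0.448% of all genes called). Standard errors of these differences were 0.41 to 0.72, and values above their own error, as for Cacng3 and Cacng2 in pulldowns, did not pass. Differences of this size or larger could thus go undetected here.

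Knockdown against no knockdown and DHPG against rest compare libraries of different experiments, so the treatment and the experiment cannot be told apart. In inputs none of the 7 genes passed with knockdown, at rest (3.89% of all genes called) or after KCl (5.29%), by edgeR, with 1 of the 7 at an unadjusted p under 0.05 in each state, Gria2 at rest (0.88) and Gria4 after KCl (-0.65). In pulldowns Gria4 alone passed, falling by 1.13 ± 0.30 at rest (adjusted p = 0.018; 9.14% of all genes called) and by 1.02 ± 0.30 after KCl (adjusted p = 0.023; 18.9%). It had 146, 117 and 156 CPM in resting pulldowns without knockdown and 70.4 and 51.7 CPM with it. After KCl it had 158, 82.1 and 112 CPM without and 55.7 and 55.5 CPM with knockdown, with no overlap in either state. Both calls ended on leaving out single libraries (at rest without the second knockdown pulldown -0.92, adjusted p = 0.24; after KCl without the first pulldown of the KCl experiment -0.69, adjusted p = 0.067).

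Gria4 is known for its high level in inhibitory interneurons. Most of the listed markers of these cells were also lower in knockdown libraries, in inputs too, where Gria4 did not pass. In resting pulldowns 4 of 6 inhibitory markers fell with knockdown, as did 5 of 6 in resting inputs, among them Gad1 (by 1.54 on the log2 scale in pulldowns, adjusted p = 2.0e-04) and Slc32a1 (by 2.05, adjusted p = 7.9e-05), and 4 of 6 fell after KCl in both fractions. The summed CPM of the 6 markers was 648 to 964 in knockdown libraries and 1537 to 2985 in the KCl experiment. Of 5 excitatory markers, 1 fell and 1 rose in each of the 4 comparisons: Slc17a7 fell (by 2.79 in resting pulldowns, adjusted p = 1.7e-06) and Slc17a6, also a vesicular glutamate transporter, rose (1.15, adjusted p = 0.0068). Also lower in resting pulldowns was Grik1, a kainate receptor subunit (-2.93, adjusted p = 2.0e-05). The part of these cells in the value of Gria4 was not tested, and in bulk libraries fewer cells of a type and fewer footprints per cell cannot be told apart.

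In DHPG inputs Gria1 (0.80 ± 0.11, adjusted p = 3.9e-05), Gria2 (0.57 ± 0.12, adjusted p = 0.0022) and Cacng8 (0.70 ± 0.15, adjusted p = 0.0019) were higher than in resting TurboID-PSD95 inputs, where 32.8% of all genes passed. Gria1 had 281, 279.6 and 290.4 CPM in DHPG inputs, all above its 151 to 196 CPM in resting inputs. In pulldowns the same 3 genes were higher, Gria1 by 0.76 ± 0.11, Gria2 by 0.51 ± 0.12 and Cacng8 by 0.64 ± 0.14, together with Cacng3 (1.23 ± 0.30, adjusted p = 0.0031), where 47.7% of all genes passed. Gria3 and Gria4 lay between -0.15 and 0.04 in both fractions. Scaling by CDS totals without TMM moved the median of all genes in pulldowns from -0.09 to -0.32, and then Gria2 did not pass (0.27, adjusted p = 0.10) and Gria3 (-0.39, adjusted p = 0.046) and Gria4 (-0.39, adjusted p = 0.022) were called lower. Astrocyte and oligodendrocyte markers differed far more between these libraries: 5 of 6 and 5 of 7 were lower in DHPG inputs, with medians of -2.48 and -3.33 on the log2 scale, and their part in the values of the 7 genes was not tested. Set beside the KCl comparison, Cacng8 was at 0.70 with DHPG and -0.92 with KCl, and Gria1 at 0.80 and 0.83. These comparisons share the resting TurboID-PSD95 inputs. The KCl values also cover Pan-TurboID inputs and lie within a single experiment, so the sets of libraries are unlike.

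The pathway around the receptor was taken as 33 other genes: the TARPs Cacng4, Cacng5 and Cacng7, other auxiliary subunits, assembly and editing factors, scaffolds, and kainate and delta receptor genes. In resting TurboID-PSD95 pulldowns 8 rose and 1 fell, with a median of 0.45, so that 27.3% of the list was called, near the 25.1% of all genes. The scaffold gene Dlg1, whose product SAP97 carries GluA1, rose by 1.45 (adjusted p = 0.0066), Grik1 by 1.26 (adjusted p = 0.0040), and Cpt1c, an endoplasmic reticulum protein that escorts GluA1, by 1.13 (adjusted p = 0.012). Abhd6, a hydrolase that binds the subunits, rose by 0.84, the scaffold gene Pick1 by 0.66, and Grid1 and Grik2, of delta and kainate receptors, by 1.03 and 0.98. Cacng7 rose by 0.71 (adjusted p = 0.031), and Akap5, which anchors kinases at the receptor, fell by 0.65 (adjusted p = 0.024). After KCl, 5 of 33 (15.2%) rose in TurboID-PSD95 pulldowns, Dlg1 by 1.69, where 12.6% of all genes were called, and in DHPG neurons 19 rose and 8 fell (81.8%, against 79.7% of all genes). With Pan-TurboID 2 rose and 1 fell at rest (9.09%, against 9.54% of all genes), and Grid1 alone rose after KCl (0.74, adjusted p = 0.042; 3.03%, against 8.75%).

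With KCl, 12.1% of the list passed in inputs, where 15.4% of all genes did. Shisa7, an auxiliary subunit, rose there (0.61, adjusted p = 0.047), and Grip1, a scaffold that binds GluA2 (by 0.70, adjusted p = 0.0051), Adarb1, the enzyme that edits glutamate receptor RNAs (by 0.49, adjusted p = 0.046), and Grid1, a delta receptor subunit (by 0.50, adjusted p = 0.033), fell. Grid1 also fell in TurboID-PSD95 pulldowns (by 0.91, adjusted p = 0.014), the sole call there (3.03% of the list, 6.58% of all genes), and none of the 33 passed in Pan-TurboID pulldowns. In knockdown neurons Shisa7 rose (0.62, adjusted p = 0.0020) and Grid1 fell (by 1.01, adjusted p = 2.5e-04) in inputs, where 3 of 32 rose and 2 fell (15.6%, against 19.3% of all genes), and 2 rose and 4 fell in pulldowns (18.8%, against 22.2%). In knockdown pulldowns over inputs, 7 rose and 5 fell of 32 at rest (37.5%, against 45.5% of all genes) and 8 rose and 5 fell after KCl (40.6%, against 48.8%). Against resting libraries of the KCl experiment, 10 of 33 were higher and 4 lower in DHPG inputs (42.4%, against 32.8% of all genes), and 10 higher and 5 lower in DHPG pulldowns (45.5%, against 47.7%). Knockdown pulldowns had 6 of 33 lower at rest (18.2%, against 9.14% of all genes) and 5 lower after KCl (15.2%, against 18.9%) with none higher, among them Cacng5 at rest (by 2.25, adjusted p = 8.5e-04). Knockdown inputs had 1 higher and 3 lower in both states (12.1%, against 3.89% of all genes at rest and 5.29% after KCl). None of the 33 passed for the differences between baits, between states of enrichment or between KCl responses.

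The share of footprint starts that lay in the 5′ UTR was higher for the 3 TARPs than for the 4 subunits. Over all libraries, 5′ UTR counts made up 65.0% of the 5′ UTR and CDS counts of Cacng2 and 64.2% of those of Cacng3, higher than in 95.9% and 95.8% of 9889 genes compared. The share was 29.0% for Cacng8, 13.5% for Gria2, 12.9% for Gria4, 6.33% for Gria1 and 4.05% for Gria3, against a median of 17.8% over all genes. The 5′ UTRs of Cacng2 and Cacng3 are long, 1137 and 1282 bases, and per base their 5′ UTR to CDS ratios (1.59 and 1.33) were higher than in 60.2% and 52.0% of all genes, whose median was 1.27. Per base Cacng8, at 0.89, lay among the subunits (0.43 to 0.92). The 5′ UTR of Cacng2 overlaps the antisense gene A730060N03Rik, and whether counting used the strand is not given in the sources used here. Counts were of 5′ ends with no offset, which places ribosomes on the first codons in the 5′ UTR.

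The 5′ UTR share was lower in the pulldown than in the input of the same culture in 19 of 19 cultures for 6 of the genes and in 18 of 19 for Cacng8. For Cacng2 the median over cultures was 77.4% in inputs and 42.9% in pulldowns, and for Gria2 it was 24.5% and 4.78%. A lower share was not particular to the 7 genes. With counts summed over all inputs and over all pulldowns, 95.4% of all genes compared had a lower share in pulldowns. This is not a count of cultures, and the share of genes lower in every culture is not given here.

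**Figure D5:**
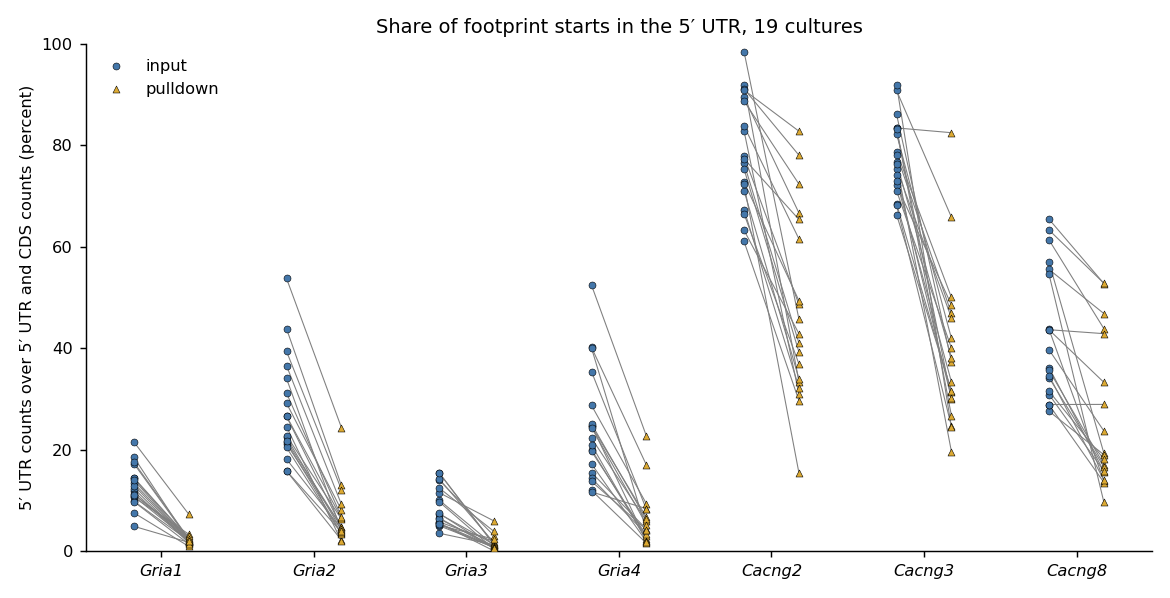
Share (percent) of 5′ UTR counts in the 5′ UTR and CDS counts of each gene, with a line joining the input (circle) and pulldown (triangle) of each of 19 cultures. Nearly every line falls, and Cacng2 and Cacng3 start highest, between 61.0% and 98.5% in inputs.

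For 5′ UTR counts, none of the 7 genes passed the test of KCl against rest as designed, in inputs (0.442% of 5′ UTRs called), in TurboID-PSD95 pulldowns (0.275%) or as depolarized minus resting enrichment (0%). Cacng3 came closest, with 17.6, 19.4 and 25.5 CPM (lowest, median and highest) in resting and 38.6, 51.3 and 63.1 CPM in depolarized inputs, which do not overlap. Its log2 fold change was 1.29 ± 0.37 (adjusted p = 0.12), and it passed by edgeR's likelihood ratio test (adjusted p = 0.046), by DESeq2 (adjusted p = 0.021) and with the replicate number as a block (1.33, adjusted p = 0.0022). The median over all 5′ UTRs was 0.17 in inputs and 0.65 in pulldowns. For Cacng2, the 5′ UTR value in inputs was 0.30 ± 0.36 where its CDS fell. In TurboID-PSD95 pulldowns all 7 values were above 0, from 0.38 ± 0.52 for Cacng2 to 1.16 ± 0.59 for Gria4, 1.25 ± 0.52 for Gria1 and 1.44 ± 0.54 for Cacng3.

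The depolarized pulldown numbered 1 stood apart in these values. The 5′ UTR of Gria2 had 44.8, 77.9 and 52.3 CPM in resting TurboID-PSD95 pulldowns 1 to 3 and 24.8, 147 and 115 CPM in depolarized ones, and that of Gria1 had 6.99, 6.27 and 6.35 CPM at rest and 6.32, 26.5 and 12.7 CPM after KCl. The first depolarized pulldown lay below the resting range for Gria2 and within it for Gria1, and the other two lay above it. Without the 4 depolarized libraries numbered 1, the 5′ UTR counts of Gria4 (1.61, adjusted p = 0.026), Gria1 (1.59, adjusted p = 0.014), Cacng3 (1.48, adjusted p = 0.032) and Gria2 (1.15, adjusted p = 0.038) passed in TurboID-PSD95 pulldowns, as did Cacng3 in inputs (1.33, adjusted p = 0.016). In that setting 17.2% of all 5′ UTRs passed in these pulldowns, with a median of 0.97 over all of them, and 1.17% in inputs. No 5′ UTR passed then for depolarized minus resting enrichment, and without all libraries numbered 1 none of the 7 genes passed in any of these comparisons.

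Flop and flip exons could be compared for Gria2 alone, the gene with at least 20 counts in both exons together in every library of the KCl experiment. In resting inputs, flop made up 40.4%, 34.9% and 44.8% of these counts with TurboID-PSD95 and 35.5%, 12.9% and 20.7% with Pan-TurboID. In depolarized inputs it made up 70.8%, 44.4% and 52.5% and 43.8%, 33.3% and 42.9%. The mean share of flop was 31.5% ± 12.2 (SD, n = 6) at rest and 48.0% ± 12.8 (n = 6) after KCl, and in each bait and number the depolarized share was the higher. The difference of 16.4 percentage points had p = 0.043 by an exact two-sided permutation test and 0.087 after adjustment over the 2 tests made, so it did not pass. The 6 inputs of a state are both baits of 3 numbers, and the permutation treats them as independent, so this p may be too small. In pulldowns the difference was 7.56 points (exact permutation p = 0.36), and pulldown minus input was 1.43 points over 12 pairs (exact paired permutation p = 0.80). These shares rest on 21 to 109 counts per input, and since exons share stretches of 35 to 56 bases with exons of other subunit genes, and how reads with several alignments were counted is not given in the sources used here, footprints of other subunits in them cannot be told apart. Over all 38 libraries flip held more counts than flop in all 4 subunit genes, with pooled flop shares of 16.7% for Gria1, 30.9% for Gria2, 17.3% for Gria3 and 18.7% for Gria4. These pooled shares mix experiments. In pulldowns of the KCl and DHPG experiments, flop took 27.0% and 7.83% for Gria1 and 41.4% and 17.5% for Gria2. For Gria3 (19.8% and 19.9%) and Gria4 (21.6% and 25.4%) it was not lower with DHPG. In resting knockdown inputs flop took 5.88% and 2.41% of the Gria2 counts and, for Gria1, 1 count against 138 of flip, and after KCl 17.6% and 29.4% of the Gria2 counts. These libraries, with as few as 17 counts of both exons, were not tested.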

How the data were processed

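PL-Ribo-seq libraries of mouse cortical neurons were counted by the authors, who aligned reads to mm10 with Rsubread and counted 5′ ends of footprints with plastid, without an offset. Removal of ribosomal RNA and of duplicates is marked in file names. The version of plastid, whether strand was used and how reads with several alignments were counted are not given in the sources used here. The deposited counts per CDS and UTR segment were used as they stand, and the RPKM columns were not used. Of 67238 coding transcripts, 66664 were matched to GENCODE M21 symbols, and the transcript with the longest total exon length was taken for each of 22375 genes. Descriptions in the labels place DHPG inputs and knockdown libraries in the cytosol, while the virus field, used here, gives the PSD95 bait.

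Counts were tested with edgeR 4.0.16 (R 4.3.3; quasi-likelihood, robust, TMM, filterByExpr, FDR 0.05), separately for the KCl experiment, for DHPG and for the knockdown libraries; 12 libraries entered DHPG against rest and 20 knockdown against no knockdown. Standard errors were derived from the F statistic. Alternatives were DESeq2 1.42.0, the likelihood ratio test named by the study's methods, other scalings, filters and transcripts, CDS length offsets, blocks, and leaving out libraries. The input was 10% of the monosomes of the same lysate, so inputs and pulldowns pair by culture, and their deviations from group means correlated by -0.21 to 0.71 (over 0.1 in 12 of 19). Those 12 were the pairs of the KCl experiment (0.36 to 0.71). In the DHPG and knockdown experiments r was -0.21 to 0.06, so the counts there do not show the pairing. Exon shares were compared by exact permutation tests. The 7 genes, the pathway and marker lists and the tests were chosen with earlier results of these data known, and all 7 are named throughout. Of the pathway list, genes past the FDR are named in some comparisons, at most 4 per sublist by smallest p, and others give counts only. Of the genes most like the subunits, the 5 with the highest r are named. The script was checked on simulated counts.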

Additional observations from a re-analysis of the deposited data

How the results depend on the processing

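Of 3143 values of single genes under alternative settings, 2857 kept their direction and their side of the threshold, 88 lost the call, 94 gained one, 103 changed sign without passing either time, and 1 changed sign and passed under the alternative only. That was Gria2 in depolarized against resting inputs, at 0.07 without a call as designed and at -0.48 (edgeR adjusted p = 0.046) without the 4 depolarized libraries numbered 1, an alternative chosen after seeing the data. Of 49 tests of pulldown over input, 24 passed, 22 to 28 with other scalings, filters, tests or transcripts, 15 without the CDS length trend, 35 with the culture as a replicate block, 33 without the 4 depolarized libraries numbered 1, and 16 to 29 on leaving out libraries (fewest without those numbered 2). Of 35 tests of KCl against rest, 12 passed, also with the replicate number as a block, which changed no call, 8 with all 38 libraries in 1 fit, and 7 (without the libraries numbered 3) to 11 on leaving out libraries. Same-numbered resting and depolarized libraries were taken as samples of the same replicate, which the study's methods say were processed together. Their deviations from their group means correlated by r = -0.19 to 0.42 (over 0.1 in 4 of 16). Of 28 tests of knockdown, 2 passed, 1 to 2 on leaving out libraries and 3 without the length trend, and of 14 tests of DHPG against rest, 7 passed, 7 to 8 under the alternatives, not always for the same genes. Scaling by CDS totals without TMM moved the median of all genes in these pulldowns from -0.09 to -0.32, and with it Gria2 lost its call (0.27) and Gria3 and Gria4 gained one (both -0.39). The same scaling moved that median from -0.02 to -0.13 in DHPG inputs, from 0.04 to -0.16 in DHPG pulldowns over inputs and from -0.01 to -0.12 in resting knockdown pulldowns over inputs. Cacng3 in DHPG inputs passed with RLE size factors (0.88, adjusted p = 0.036), by DESeq2 (0.88, adjusted p = 0.024) and without the length trend (0.87, adjusted p = 0.036). For 5′ UTR counts, 0 of 21 passed, and 1, Cacng3, with the likelihood ratio test, with DESeq2 (1) and with the replicate block (1), while 5 passed without the 4 depolarized libraries numbered 1, the causes of which were not tested. No difference in enrichment or in KCl response passed under any alternative run. The flop difference of Gria2 was 15 to 17.2 points in inputs, -1.93 to 13.3 in pulldowns and -3.68 to 4.11 for pulldown over input on leaving out replicates. A minimum of 50 counts in both exons left no gene to compare. Depth limits Cacng2 and Cacng3, with as few as 1 and 10 CDS counts in a library, and the exon shares.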
